A study of Mus musculus with 7 samples.

Results

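The SLAM family receptors Slamf6, Slamf7, Ly9 and Cd84 were examined in activated splenic B cells labelled Batf KO or wild type. The members were the rows of the deposited table with these 4 gene symbols, and all 4 were found among the 752 genes it lists. The samples were 3 libraries labelled Batf KO and 4 labelled wild type, all with a C57BL/6J strain background. Splenic B cells of both groups had been purified on magnetic columns and cultured for 6 h with lipopolysaccharide (20 µg/mL), a bacterial ligand of TLR4, and interleukin-4 (20 ng/mL). No unstimulated cells were included, so each value describes cells that had received both agents. The sources used here do not describe the knockout allele, the sex of the mice or the purity of the B cells. The design text also mentions 2 replicates per sample, without saying what they are, and each library was treated as 1 mouse.

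SLAM family receptors are cell surface proteins of the immunoglobulin superfamily. Most of them bind a copy of themselves on a neighbouring cell, and their cytoplasmic tails recruit the adaptor SAP, its relative EAT-2 or phosphatases, so that the same receptor can pass on an activating or an inhibitory signal. On B cells and T cells they are known for their part in cell contact during antibody responses and in tolerance. BATF, the factor whose gene is disrupted in the knockout per its label, belongs to the AP-1 family and acts as a partner of JUN proteins and of interferon regulatory factors at composite DNA sites.

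The members lie in 1 gene cluster of chromosome 1. RefSeq promoter windows (GRCm38.p6) matched 3 of the 4 members, Ly9 being the exception. Their 250 bases before the transcription start are shown because the letters of the AP-1 site, TGANTCA, occur in some of them and not in others. The windows are chr1:171917212-171917461 on the plus strand for Slamf6, chr1:171839447-171839696 on the plus strand for Cd84 and chr1:171649000-171649249 on the minus strand for Slamf7. They are written 5′ to 3′ on the strand of the gene, with TGANTCA in capitals.
Slamf6: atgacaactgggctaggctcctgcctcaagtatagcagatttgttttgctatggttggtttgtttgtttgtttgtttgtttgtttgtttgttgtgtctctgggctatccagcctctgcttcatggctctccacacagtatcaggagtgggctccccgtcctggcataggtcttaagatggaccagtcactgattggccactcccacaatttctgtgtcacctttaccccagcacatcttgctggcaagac
Cd84: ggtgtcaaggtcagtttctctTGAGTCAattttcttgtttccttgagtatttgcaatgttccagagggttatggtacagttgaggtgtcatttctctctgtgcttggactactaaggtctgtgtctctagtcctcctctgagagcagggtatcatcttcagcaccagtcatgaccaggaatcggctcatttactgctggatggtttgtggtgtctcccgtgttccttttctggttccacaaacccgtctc
Slamf7: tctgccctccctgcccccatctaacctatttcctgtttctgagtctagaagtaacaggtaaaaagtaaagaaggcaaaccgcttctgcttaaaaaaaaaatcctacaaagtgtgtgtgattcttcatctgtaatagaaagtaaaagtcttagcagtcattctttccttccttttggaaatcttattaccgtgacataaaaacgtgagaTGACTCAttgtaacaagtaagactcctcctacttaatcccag
Slamf7 had 1 match, TGACTCA, with 35 bases between it and the start. Cd84 had 1 match, TGAGTCA, with 222 bases between it and the start. Slamf6 had none in this window. Over all 32851 RefSeq windows of the same length, 6.75% held TGANTCA on either strand. The RefSeq start of Slamf7 lies 4036 bases inside the gene as GENCODE annotates it, that of Slamf6 lies 53 bases before it, and that of Cd84 is the same, so the windows cover 1 of the possible starts. Another 8 motifs were searched on both strands of the 3 windows, and none matched. The composite AP-1 and IRF sites, which contain TGANTCA, were searched as TTTC placed 4 bases before it (0.0974% of all windows) and as GAAA joined to it (0.1%). The others were the cyclic AMP response site TGAC joined to GTCA (1.55%), the NFIL3 site TTAC joined to GTAA (0.113%), the ETS and IRF site GGAA placed 2 bases before GAAA (2.3%), the interferon response site GAAA placed 2 bases before GAAA (2.98%), the STAT site TTC placed 4 bases before GAA (5.85%) and the NF-kappaB site GGGA placed 1 base before TTTCC (0.356%). A match or its absence describes these letters and says nothing of binding.

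Read depth overlapped between the groups. Effective library sizes, recovered as count divided by CPM (the deposited read counts rescaled so that libraries of unequal depth compare), ran from 23675459 to 30844920 in Batf KO and from 24891094 to 44728937 in wild type. Batf itself was 319 ± 11.2 CPM in wild type (SD, n = 4) and 66.5 ± 3.49 CPM in Batf KO (SD, n = 3), and no Batf KO library reached a wild-type one. By a chi-square test of read counts, no 2 libraries of a group agreed within sampling noise, and wild-type replicates 1 and 2 (18.5 per degree of freedom) and 3 and 4 (20.8) were closer to each other than the remaining wild-type pairs (33.3 to 49.8). Batf KO replicate 1 held all 72 reads of the Y chromosome gene Usp9y. The members' values without that library were close to those with it, at log2 fold changes of -2.01 for Slamf6, -0.35 for Cd84, 0.73 for Slamf7 and 0.34 for Ly9.

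The deposited table is restricted to genes called by the authors in their test of Batf KO against wild type, at a false discovery rate (FDR) under 0.05. That was 752 of 19734 genes, or 3.81% of those tested, with 1.95% higher and 1.86% lower in Batf KO. All 4 members passed that test by being in the table, so this count carries no information about them. A stricter reading came from the edgeR quasi-likelihood test adjusted over all 19734 genes, in which unlisted genes count as not passing. It called 1.45% of the 19734 genes (0.679% higher, 0.77% lower) and 1 of the 4 members, Slamf6, which was lower. All 286 genes called were among the 667 listed genes with a mean of at least 1 CPM, the only ones fitted. The members belong to those 667, so the like share to set beside 1 of 4 members is 286 of 667, not 1.45%. Adjusted over the 667 listed genes with a mean of at least 1 CPM alone, 100% of those genes and so all 4 members passed. Because the genes were listed for a difference between these same libraries, neither test is independent evidence of that difference. In these bulk samples, fewer cells of a type and less RNA per cell cannot be told apart.

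Slamf6 had the largest difference of the 4. It encodes a self-binding receptor, also called Ly108 in the mouse, that is found on B, T and natural killer cells. In wild type it was 30.4, 27.6, 34.4 and 33.9 CPM in replicates 1 to 4, and in Batf KO it was 7.68, 6.83 and 8.83 CPM in replicates 1 to 3. The highest Batf KO library was far below the lowest wild-type library. The mean of 31.6 ± 3.21 CPM in wild type (SD, n = 4) fell to 7.78 ± 1.0 CPM in Batf KO (SD, n = 3), a 4.06-fold decrease. The log2 fold change was -2.02 (SE 0.13), at an edgeR adjusted p of 0.000305. The Batf KO values rest on 184 to 237 reads per library and the wild-type values on 830 to 1538. In the authors' deposited table, Slamf6 has a log2 fold change of -2.02, an FDR of 4.39e-43 and the 6th smallest p-value of all listed genes. By the size of the fitted decrease it came 13th among 328 lower genes with a mean of at least 1 CPM. It passed the edgeR test with each library left out in turn, at adjusted p of 0.000392 to 0.00506.

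Cd84, the other member with lower values in Batf KO, encodes a self-binding receptor of B cells, T cells, platelets and myeloid cells. It was 42.3, 45.8, 44.1 and 40.9 CPM in wild-type replicates 1 to 4 and 32.9, 35.4 and 32.5 CPM in Batf KO replicates 1 to 3. The groups did not overlap, but the gap between the lowest wild-type and the highest Batf KO library was small. The means were 43.3 ± 2.17 CPM (SD, n = 4) and 33.6 ± 1.58 CPM (SD, n = 3), a ratio of 0.776. With a log2 fold change of -0.37 (SE 0.08), Cd84 did not pass the edgeR test over 19734 genes (adjusted p = 0.0624). The authors' deposited table gives it an FDR of 0.0145.

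Slamf7 lay in the opposite direction. It encodes a self-binding receptor, also called CRACC or CD319, that signals through EAT-2 in natural killer cells and is abundant on plasma cells. It was 92.3, 90.7, 120 and 86.1 CPM in wild-type replicates 1 to 4 and 134, 169 and 153 CPM in Batf KO replicates 1 to 3. Wild-type replicate 3 was above the other wild-type libraries and nearest to Batf KO, and the groups did not overlap. The means were 97.3 ± 15.5 CPM (SD, n = 4) and 152 ± 17.9 CPM (SD, n = 3), a ratio of 1.56. The log2 fold change was 0.64 (SE 0.13), and the adjusted p of 0.053 in the edgeR test over 19734 genes was just above the threshold. Without wild-type replicate 3 it was 0.76 (edgeR adjusted p = 0.0131). Slamf7 did not pass with any other library left out (edgeR adjusted p up to 0.254). The authors' deposited table gives Slamf7 an FDR of 2.18e-05.

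Ly9, also known as CD229, encodes a self-binding receptor of B and T cells. It was 227, 208, 268 and 228 CPM in wild-type replicates 1 to 4 and 306, 293 and 298 CPM in Batf KO replicates 1 to 3. Wild-type replicate 3 was again the highest of its group, and all Batf KO libraries were above it. The means were 233 ± 25.2 CPM (SD, n = 4) and 299 ± 6.74 CPM (SD, n = 3), a ratio of 1.28. The log2 fold change of 0.36 (SE 0.08) did not pass the edgeR test over 19734 genes (adjusted p = 0.104). It was 0.44 without wild-type replicate 3 (edgeR adjusted p = 0.0234). Ly9 did not pass with any other library left out (edgeR adjusted p up to 0.432). The authors' deposited table gives Ly9 an FDR of 0.0221.

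**Figure D1:**
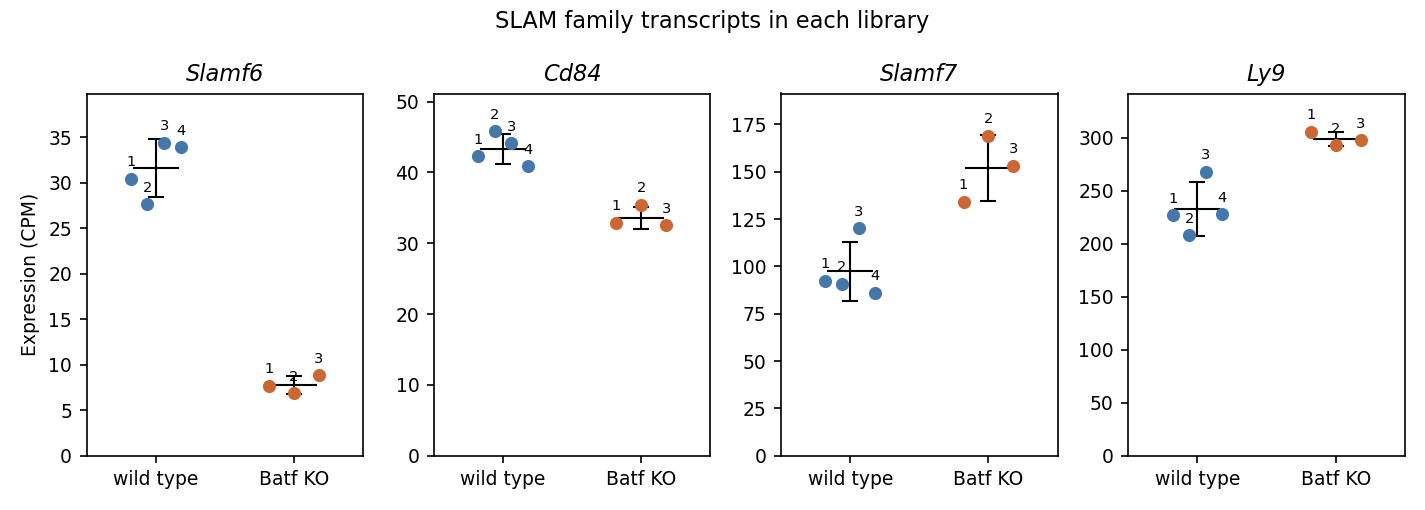
Expression of each member (CPM, linear axis from 0) in the 4 wild-type and 3 Batf KO libraries. Points are libraries with their replicate number, and bars give the mean and SD. Slamf6 is at 6.83 to 8.83 CPM in Batf KO against 27.6 to 34.4 CPM in wild type, and the groups are separate in each panel.

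The groups were separate for all 4 members. Among the 667 listed genes with a mean of at least 1 CPM the same held for 96.1%, as the table was selected on this contrast. The members' median absolute log2 fold change was 0.50, beside 0.61 for those 667 genes. Slamf7 came 147th of 339 higher genes by size, Ly9 301st of 339, and Cd84 302nd of 328 lower genes. Spread between libraries was described for each member, but differences in it among the members were not tested. In Batf KO the coefficient of variation was 12.9% for Slamf6, 11.8% for Slamf7, 4.69% for Cd84 and 2.25% for Ly9, and in wild type it was 10.2%, 15.9%, 5.01% and 10.8% in the same order.

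**Figure D2:**
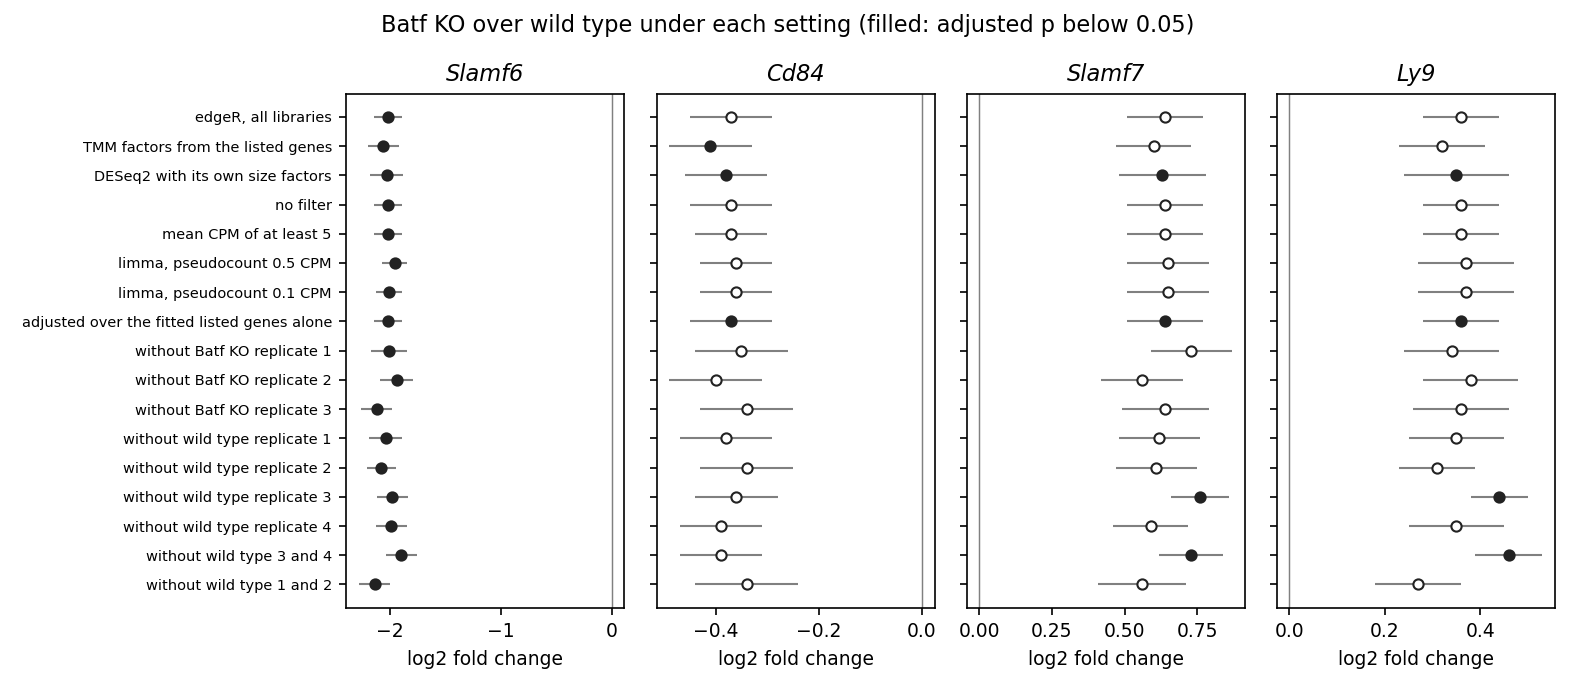
Log2 fold change of each member, Batf KO over wild type, with its SE (horizontal lines), for the edgeR fit of all libraries and for each alternative setting. Filled points have an adjusted p under 0.05. Slamf6 is filled in each row, between -2.14 and -1.90, and the other members keep their direction but are mostly open; the horizontal scales differ between panels.

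Whether the members differed from one another was tested on ratios of their reads within each library, which do not depend on the scaling between libraries. All 6 pairs were compared by an exact two-sided permutation test over the 35 assignments of genotype to the 7 libraries, whose smallest possible p is 0.0286, adjusted over the 6 pairs. The ratio of Slamf6 to Slamf7 reads was 0.286 to 0.394 in wild type and 0.0403 to 0.0578 in Batf KO, a change of -2.67 on the log2 scale (SE 0.20). For Slamf6 to Ly9 it was 0.128 to 0.149 in wild type and 0.0233 to 0.0296 in Batf KO (log2 change -2.39, SE 0.11). Slamf6 was also lower relative to Cd84, the other member with lower values, at 0.601 to 0.831 in wild type and 0.193 to 0.272 in Batf KO (log2 change -1.66, SE 0.18). The ratio of Slamf7 to Cd84 was 1.98 to 2.72 in wild type and 4.06 to 4.79 in Batf KO (log2 change 1.01, SE 0.13). Ly9 to Cd84 was 4.53 to 6.07 in wild type and 8.28 to 9.31 in Batf KO (log2 change 0.73, SE 0.10). Each of these 5 pairs had an exact permutation p of 0.0286, adjusted 0.0343. Where a pair joined a lower and a higher member, both were already separate between the genotypes in opposite directions. Their ratio therefore had to separate too, and the test adds nothing for such pairs. For Slamf6 to Cd84 the CPM ranges also fixed the outcome, however the libraries were matched, so the test adds nothing there either. Slamf6 was 6.83 to 8.83 CPM in Batf KO and 27.6 to 34.4 CPM in wild type. Cd84 was 32.5 to 35.4 CPM in Batf KO and 40.9 to 45.8 CPM in wild type. Of the 6 pairs, Slamf7 to Ly9 alone had an open outcome. Slamf7 and Ly9, the members with higher values, could not be told apart in the size of their difference. Their ratio was 0.377 to 0.449 in wild type and 0.436 to 0.578 in Batf KO, so the groups overlapped, with a log2 change of 0.28 (SE 0.13; exact permutation p = 0.0857, adjusted 0.0857).

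**Figure D3:**
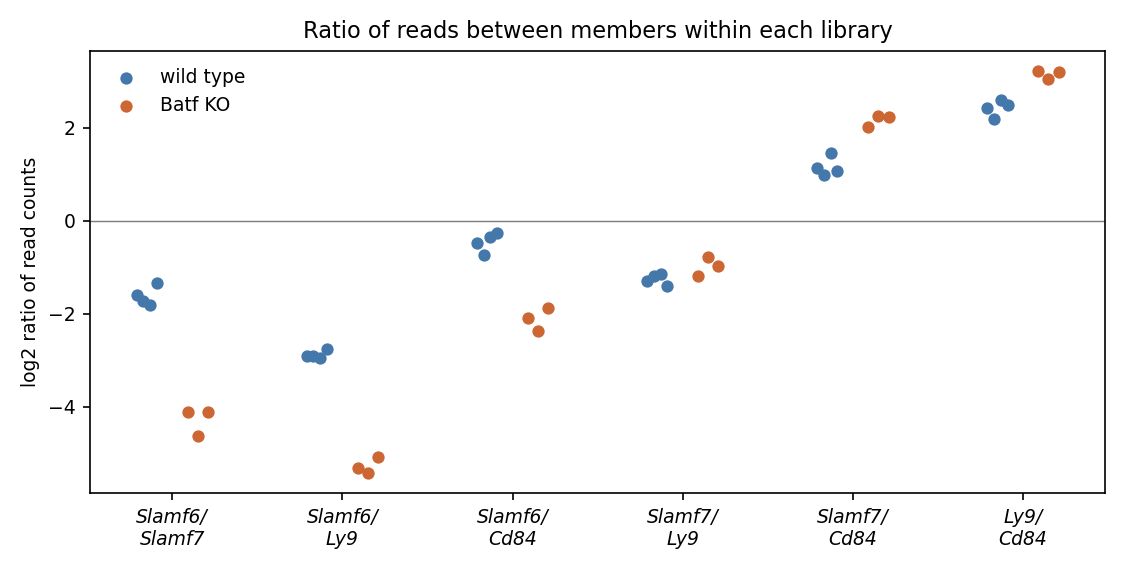
Log2 ratio of the read counts of each pair of members within each library, for 4 wild-type and 3 Batf KO libraries (1 point per library; the line marks equal read counts). The groups are separate in 5 of the 6 pairs, and they overlap for Slamf7 over Ly9, at ratios of 0.377 to 0.449 in wild type and 0.436 to 0.578 in Batf KO.

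Levels were compared between members after division by the length of the longest principal transcript in GENCODE (2485 bases for Slamf6, 3291 for Cd84, 3975 for Slamf7 and 2488 for Ly9). In wild type Ly9 was highest at 93.6 ± 10.1 CPM per kb (SD, n = 4), followed by Slamf7 at 24.5 ± 3.89, Cd84 at 13.2 ± 0.658 and Slamf6 at 12.7 ± 1.29 CPM per kb. The ranges of Cd84 (12.4 to 13.9) and Slamf6 (11.1 to 13.8) overlapped, so their order was not resolved there. In Batf KO the order was Ly9 at 120 ± 2.71 CPM per kb (SD, n = 3), Slamf7 at 38.2 ± 4.5, Cd84 at 10.2 ± 0.479 and Slamf6 at 3.13 ± 0.404 CPM per kb, with no overlap between neighbours. Slamf6 made up 8.84% ± 0.655 (SD, n = 4) of the 4 members' summed level per kb in wild type and 1.82% ± 0.245 (SD, n = 3) in Batf KO. For Cd84 this share was 9.21% ± 1.04 and 5.94% ± 0.221, for Slamf7 17.0% ± 1.17 and 22.2% ± 2.36, and for Ly9 65.0% ± 0.963 and 70.0% ± 2.39, in wild type and Batf KO respectively. With the length of all annotated exons of a gene instead, 10832 bases for Slamf6, the wild-type level of Slamf6 was 2.91 and that of Cd84 6.9 CPM per kb, with no overlap between their ranges (2.55 to 3.17 and 6.51 to 7.31). Cd84 had the higher mean with either length, and whether the ranges overlapped depended on the length used.

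By position, the members with higher values were neighbours and so were those with lower values. Ly9 (171588624 to 171607410) and Slamf7 (171632403 to 171653035) lie at one end of the cluster on the minus strand, and Cd84 (171839697 to 171890718) and Slamf6 (171917515 to 171953170) lie at the other end on the plus strand of chromosome 1 (GENCODE M21, GRCm38). Between them are Cd48 and Slamf1, family members that are not in the table and so have no value here. The members, listed to begin with, set a span that entirely holds 7 protein-coding genes, of which 5 were listed. The one that is no member, Gm10521 (171895664 to 171898237, plus strand), sits between Cd84 and Slamf6 and had lower values in Batf KO, 2.78 ± 0.551 CPM (SD, n = 3), than in wild type, 4.85 ± 0.0781 CPM (SD, n = 4). Its log2 fold change of -0.81 (SE 0.17) did not pass the edgeR test over 19734 genes (adjusted p = 0.0634).

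Within 1 Mb of the members' span, 8 of 67 protein-coding genes were listed (11.9%), 4 of them the members, while 3.1% of all 21951 annotated protein-coding genes were listed. The window was placed around the members, which were listed to begin with, so these shares are not a like comparison. Igsf9, an immunoglobulin superfamily gene, and Tagln2, which encodes an actin-binding protein, lie beyond Slamf6. Tagln2 rose, with 93.9 ± 3.88 CPM in wild type (SD, n = 4) and 142 ± 14.0 CPM in Batf KO (SD, n = 3), at an edgeR adjusted p of 0.00728, or 0.0502 without Batf KO replicate 2. Igsf9 was 4.75 ± 0.475 CPM in wild type (SD, n = 4) and 7.74 ± 1.04 CPM in Batf KO (SD, n = 3) (edgeR adjusted p = 0.0666). Atf6, which encodes an endoplasmic reticulum stress sensor, fell by 0.38 on the log2 scale (SE 0.07; edgeR adjusted p = 0.0297), and did not pass with any library but wild-type replicate 1 left out (adjusted p up to 0.153). Slamf7 shares 423 of its 4577 exon bases with the antisense gene Gm37787. The sources used here do not say whether counting used strand, so reads of the pair cannot be told apart there. Ly9 lies inside the span of Cd244a and the start of Slamf6 inside that of the antisense gene Gm37065, both on the opposite strand, but they share 0 exon bases with these genes.

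**Figure D4:**
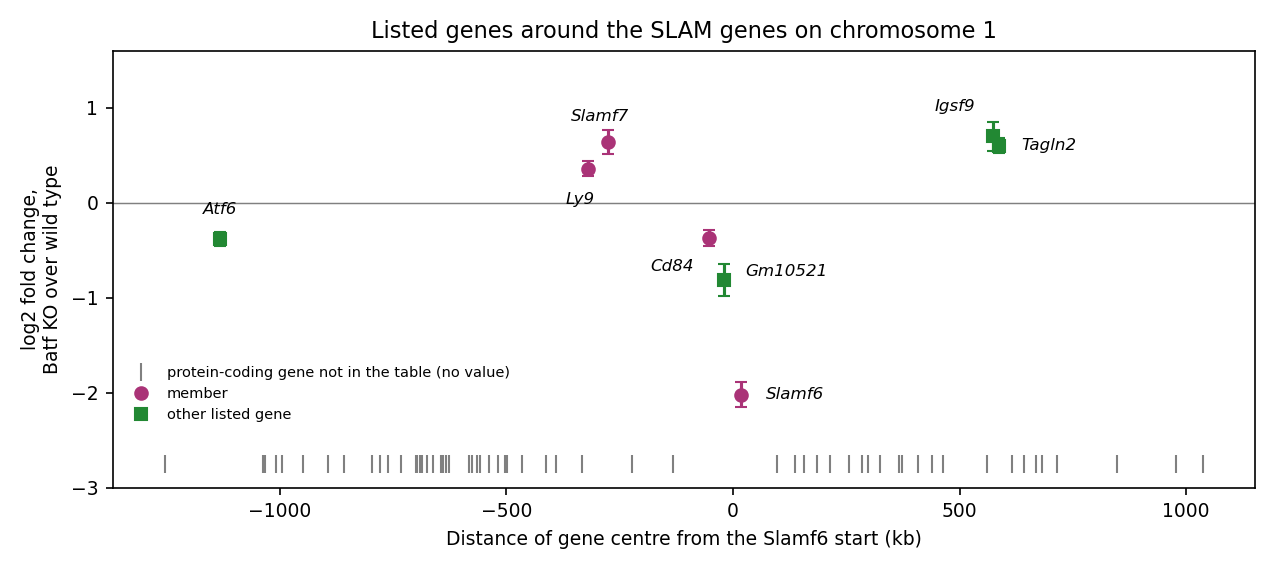
Log2 fold change (Batf KO over wild type, edgeR, with SE bars) of the listed genes around the members, by distance of the gene's centre from the start of Slamf6 in kb. Ticks at the bottom are protein-coding genes that are not in the table and have no value. Ly9 and Slamf7 lie above 0 on the left, and Cd84, Gm10521 and Slamf6 lie below 0 around the origin.

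Other genes of the SLAM pathway were mostly not listed. Of 10 genes of the family and its close relative Cd2, the 4 members were in the table, and Slamf1, Cd48, Cd244a, Slamf8, Slamf9 and Cd2 were not. None of the 3 genes of SAP and EAT-2 was listed. An unlisted gene did not pass the authors' threshold and has no level here, which does not show that it was unchanged. Of the kinases and phosphatases linked to the receptors, the Src family kinase gene Lyn passed the edgeR test. Lyn rose, with 65.3 ± 5.01 CPM in wild type (SD, n = 4) and 88.6 ± 6.8 CPM in Batf KO (SD, n = 3), with an edgeR adjusted p of 0.0486. It did not pass when any 1 of the 7 libraries was left out (adjusted p 0.0653 to 0.231). Of 15 downstream signalling genes 1 was listed, the phospholipase gene Plcg2, at 108 ± 9.86 CPM in wild type (SD, n = 4) and 135 ± 11.1 CPM in Batf KO (SD, n = 3), and it did not pass (edgeR adjusted p = 0.2).

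The genes whose values over the 7 libraries were most like each member were found by the root mean square difference of log2(CPM + 0.5), centred on the wild-type mean, among 666 other listed genes. Nearest to Slamf6 were Plbd1 (difference 0.14), a phospholipase B-like gene of the lysosome, Rab43 (0.19), a small GTPase gene of membrane transport, and Nfil3 (0.21), a basic leucine zipper repressor gene. Plbd1 was 34.8 ± 6.43 CPM in wild type (SD, n = 4) and 8.7 ± 0.836 CPM in Batf KO (SD, n = 3), close to the levels of Slamf6. Nearest to Slamf7 were the CDK5 activator gene Cdk5r1 (0.12), CAAA01098150.1 (0.14) and the actin-binding gene Lsp1 (0.14). Nearest to Ly9 were the replication factor C subunit gene Rfc1 (0.08), 2310033P09Rik (0.09) and Rabggta (0.09), a subunit of the enzyme that adds lipid to Rab proteins. Nearest to Cd84 were Inip (0.04), Taok3 (0.05) and Erlin1 (0.06). The listed genes were selected on the difference between the genotypes, and that difference is part of this measure.

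Markers of B cells and of other spleen cells were looked up in the table. Of 16 T and natural killer cell markers, Cd8b1 was listed and rose, from 1.48 to 2.59 CPM in the wild-type libraries to 5.24 to 7.42 CPM in the Batf KO libraries (edgeR adjusted p = 0.013, or 0.0805 without Batf KO replicate 1 and 0.0765 without replicate 2). Of 5 plasma cell markers, Prdm1 was listed, at 7.3 to 13.0 CPM in wild type and 5.2 to 6.75 CPM in Batf KO (edgeR adjusted p = 0.276). Of 14 myeloid markers Zbtb46 was listed, at 47.4 to 65.6 CPM in wild type and 73.6 to 89.6 CPM in Batf KO (edgeR adjusted p = 0.0744, or 0.0447 without wild-type replicate 4). Of 8 erythroid and platelet markers Pf4 was listed, at 0.281 to 0.627 CPM in wild type and 0.76 to 1.04 CPM in Batf KO. Of 11 B cell markers, Ms4a1 and Blk were listed and both rose, with a summed level of 607 to 687 CPM in wild type and 943 to 1010 CPM in Batf KO. Ms4a1, which encodes CD20, was 580 ± 39.6 CPM (SD, n = 4) and 879 ± 40.9 CPM (SD, n = 3), and the Src family kinase gene Blk was 72.5 ± 4.4 CPM (SD, n = 4) and 104 ± 6.94 CPM (SD, n = 3), in wild type and Batf KO (edgeR adjusted p = 0.00392 and 0.0124). Blk did not pass without Batf KO replicate 1 or 2 (edgeR adjusted p 0.0748 and 0.0761). The other markers, Cd3e among them, have no level here. The part of these cells in the members' values was not tested.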

How the data were processed

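RNA sequencing of splenic B cells gave 4 wild-type and 3 Batf KO libraries, each treated as 1 mouse. The build mm10 and the tools edgeR 3.03, HTSeq 0.5.3p7 and TopHat2 2.0.6 are given per the submitters' processing notes, without roles. Per the file headers, the deposited table holds read counts, CPM values computed by the authors, and the authors' log2 fold change, log2 mean CPM, likelihood ratio (a score), p-value and FDR. The ratio of FDR to p-value gave 19734 genes tested by the authors. The table lists the 752 with an FDR of at most 0.0499.

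Counts were fitted with edgeR 4.0.16 (quasi-likelihood, two-sided, R 4.3.3) for the 667 genes with a mean of at least 1 CPM, using the deposited effective library sizes. Adjusted p-values are Benjamini-Hochberg values over 19734 genes, with unlisted genes given the highest possible p-value. The SE is the log2 fold change divided by the square root of F. P-values reflect only how much these libraries differ. The test was also run on simulated data. Groups came from the genotype label, and the mouse numbers pair no samples. Alternatives were TMM factors, DESeq2 1.42.0, limma 3.58.1 (pseudocounts 0.5 and 0.1 CPM), other filters, adjustment over the 667 genes alone and libraries left out. Positions and lengths are from GENCODE M21 (GRCm38, also called mm10), which matched 742 of 752 identifiers.

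The genes named are the 4 members, listed genes of the pathway lists, listed genes starting within 1 Mb of the members, the 3 nearest profiles of each member, and listed cell type markers, and the result of 1 gene of these lists is not reported here. The members and lists were chosen with earlier results of these data known.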

Additional observations from a re-analysis of the deposited data

Results flagged for a closer look

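The wild-type values of 30 named genes were screened for a library apart from the rest, taking its gap to the nearest as a part of the group's range (Dixon's test). Chance flags about 1 in 20 such sets, and 1 was found. For Tagln2, wild-type replicate 4 was at 88.1 CPM, below the range of 95.5 to 96.3 CPM of the remaining libraries. Slamf7 in wild-type replicate 3 was just under the critical value, with a ratio of 0.819. The Batf KO groups of 3 were not screened.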

How the results depend on the processing

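No member reversed its direction under the 16 alternatives. Slamf6 passed in all 16, Slamf7 and Ly9 in 4 each and Cd84 in 3. With DESeq2 all 4 members passed (Slamf7 0.63, Cd84 -0.38, Ly9 0.35 on the log2 scale; adjusted p 0.000844, 0.000444 and 0.035), as they did when adjusted over the 667 listed genes alone (0.64, -0.37 and 0.36), where each listed gene passes. TMM factors from the listed genes shifted the median gene by -0.04 and moved Cd84 to -0.41 (edgeR adjusted p = 0.0382), so that 2 members passed. Without wild-type replicates 3 and 4, Slamf7 was 0.73 (edgeR adjusted p = 0.0452) and Ly9 0.46 (edgeR adjusted p = 0.0419), and 3 members passed. Leaving out wild-type replicates 1 and 2 gave 0.56 for Slamf7 (edgeR adjusted p = 0.242) and 0.27 for Ly9 (edgeR adjusted p = 0.509), and 1 member passed. With 1 library left out, the log2 fold change was -2.12 to -1.94 for Slamf6, 0.56 to 0.76 for Slamf7, -0.4 to -0.34 for Cd84 and 0.31 to 0.44 for Ly9, and 1 to 3 members passed, 3 of them without wild-type replicate 3. Apart from the listed genes' own adjustment, the cause of these changes was not tested.

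With libraries left out, the permutation test of the ratios has too few splits to pass. The log2 changes were then -2.76 to -2.5 for Slamf6 over Slamf7, -2.49 to -2.32 for Slamf6 over Ly9, -1.78 to -1.53 for Slamf6 over Cd84, 0.96 to 1.11 for Slamf7 over Cd84, 0.65 to 0.79 for Ly9 over Cd84 and 0.18 to 0.39 for Slamf7 over Ly9. Without wild-type replicates 3 and 4 the first 5 were -2.63, -2.36, -1.51, 1.12 and 0.85, and without 1 and 2 they were -2.71, -2.42, -1.80, 0.91 and 0.61. No paired analysis was possible because no mouse number in the titles occurs in both genotypes. Depth limits Slamf6 most, with 184 to 237 reads per Batf KO library.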
